A study of Mus musculus with 12 samples.

Results

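The 10 genes described here encode proteins of the skeletal muscle sarcomere or of its fast fibres: Acta1, Ckm, Mylpf, Tnnt3, Tnni2, Myh1, Myh2, Myh4, Myh3 and Neb. All 10 were found by symbol among the 55487 genes of the count table, and each was followed library by library in 12 whole lungs. They were chosen by their values in one lung: room air male 1 stood apart from the other 11 lungs in muscle genes, so its values, and its difference from the others, are given as a description with no test.

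The lungs came from C57BL/6J mice with the genotype miR-30a-/-, in which the gene of microRNA-30a is deleted, and all 4 groups carried this deletion. Male and female pups, pooled over litters and then divided, breathed 95% oxygen from postnatal day (PND) 1 to PND 5 or room air, and lungs were taken on PND 21 after perfusion of the right ventricle. Each group held 3 lungs: room air males 1, 4 and 5, room air females 2, 5 and 6, hyperoxia-exposed males 1, 2 and 3, and hyperoxia-exposed females 2, 4 and 5. Wild-type lungs were not analysed here. The gene counts of a lung added up to 8763033 at the least and 16741694 at the most, with 11966653 in room air male 1. Levels are given as CPM, counts relative to the library total scaled by the upper quartile, and the detection floor of 3 counts corresponds to 0.191 to 0.327 CPM. A background of reads was measured as the median count per kilobase (kb) of exon over 1490 olfactory and vomeronasal receptor genes, taken here as largely unused in lung. The paper does name the olfactory receptor gene Olfr78 among those raised in its hyperoxia-exposed miR-30a-/- females. The background was 1.58 CPM per kb in room air male 1 and 0.725 to 1.54 CPM per kb in the other 11 lungs.

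In a sarcomere, thick filaments of myosin slide along thin filaments of actin. Skeletal alpha-actin (Acta1) forms the thin filament, nebulin (Neb) runs along it, and the troponin complex, of which Tnnt3 and Tnni2 are the fast fibre forms, makes its contact with myosin depend on calcium. The myosin heavy chain sets the type of a fibre: Myh7 marks slow type I, Myh2 type IIa, Myh1 type IIx and Myh4 type IIb, while Myh3 is the embryonic and Myh8 the perinatal form. Mylpf is the regulatory light chain of fast fibres and Ckm the muscle creatine kinase, which buffers ATP. The lung itself holds no skeletal muscle, whereas the diaphragm, the chest wall, the larynx and, in mice, the wall of the oesophagus are made of it or contain it.

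The genes lie on 4 chromosomes of GRCm38. Acta1 (ENSMUSG00000031972) spans 123891769 to 123894751 of chromosome 8, and Neb (ENSMUSG00000026950) spans 52136647 to 52378474 of chromosome 2. Chromosome 7 carries Ckm (ENSMUSG00000030399, from 19404776), Mylpf (ENSMUSG00000030672, from 127208890), Tnni2 (ENSMUSG00000031097, from 142441808) and Tnnt3 (ENSMUSG00000061723, from 142498836). The 4 myosin genes sit side by side on the plus strand of chromosome 11, in the order Myh3 (ENSMUSG00000020908, from 67078300), Myh2 (ENSMUSG00000033196, from 67171027), Myh1 (ENSMUSG00000056328, from 67200052) and Myh4 (ENSMUSG00000057003, from 67238029). Myh8 follows from 67277124 and the extraocular form Myh13 from 67321658.

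Sequences upstream of the RefSeq start were in the RefSeq table (GRCm38.p6) for 7 of the 10 genes. This start can differ from the gene spans above, which are those of GENCODE M21. Distances below are from the RefSeq start. The Myh1 window runs to 67200101, past the 67200052 where its span begins. Its TATA box nearest the RefSeq start therefore lies inside that span. The Acta1 window stops at 123894776, short of its span, whose upper end is 123894751. The 250 bases before the start are printed for the 2 genes with the highest level per kb of exon, summed over all transcripts, in room air male 1, Acta1 and Myh1. They are also printed for Myh2, the neighbour of Myh1 that was near the level of the other lungs, and for Myh8, the perinatal neighbour that was high with Myh1. Capitals mark matches on either strand to the E-box CANNTG, bound by myogenic factors, to the TATA box TATAAA, to the CArG box, bound by serum response factor, or to the MEF2 site.
Acta1 (chr8:123894776-123895025, minus strand): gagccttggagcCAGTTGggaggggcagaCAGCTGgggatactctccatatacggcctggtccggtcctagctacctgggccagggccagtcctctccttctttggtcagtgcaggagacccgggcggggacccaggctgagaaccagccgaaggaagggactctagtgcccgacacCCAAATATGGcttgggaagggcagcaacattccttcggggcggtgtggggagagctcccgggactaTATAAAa
Myh1 (chr11:67199852-67200101, plus strand): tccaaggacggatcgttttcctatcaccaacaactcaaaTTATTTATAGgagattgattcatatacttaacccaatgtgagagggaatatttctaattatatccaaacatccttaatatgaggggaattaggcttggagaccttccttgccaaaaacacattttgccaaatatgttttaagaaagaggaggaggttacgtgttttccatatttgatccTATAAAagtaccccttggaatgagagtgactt
Myh2 (chr11:67170777-67171026, plus strand): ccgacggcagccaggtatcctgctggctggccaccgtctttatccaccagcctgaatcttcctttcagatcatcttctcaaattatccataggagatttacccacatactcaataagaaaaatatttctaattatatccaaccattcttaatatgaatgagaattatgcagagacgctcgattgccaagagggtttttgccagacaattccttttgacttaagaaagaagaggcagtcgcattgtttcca
Myh8 (chr11:67276874-67277123, plus strand): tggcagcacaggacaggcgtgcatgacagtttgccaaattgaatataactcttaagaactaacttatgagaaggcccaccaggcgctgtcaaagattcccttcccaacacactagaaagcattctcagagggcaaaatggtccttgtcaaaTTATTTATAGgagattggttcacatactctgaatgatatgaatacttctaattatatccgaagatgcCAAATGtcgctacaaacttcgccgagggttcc
In the Acta1 sequence the capitals are E-boxes that begin 238 and 221 bases before the start, a CArG box 73 bases and a TATA box 7 bases before it. For Myh1 they are a MEF2 site, which holds a TATA box match on the other strand, 211 bases before the start and a TATA box 32 bases before it. No match lay in the Myh2 window, which says only that these letters are not in it. The Myh8 window holds a MEF2 site 99 bases before the start, again with a TATA box match inside it, and an E-box 32 bases before the start. Among the 7 genes with a sequence, 5 held an E-box, 4 a TATA box, 2 (Acta1 and Myh4) a CArG box and 2 (Myh1 and Myh4) a MEF2 site. Over the same 250 bases of all 32851 RefSeq starts, an E-box was in 66.2%, a TATA box in 12.4%, a CArG box in 1.47% and a MEF2 site in 2.92%.

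Room air male 1 differed from the other lungs in more than these genes, so its lung identity was looked at first. The surfactant gene Sftpc, which marks alveolar type 2 cells, stood at 2240 CPM in room air male 1 and at 1970 to 5233 CPM in the others. Summed levels of 7 type 2 genes (5078 CPM in room air male 1, 4826 to 11894 CPM in the others), of 6 type 1 genes (993 against 875 to 2020 CPM) and of 6 endothelial genes (902 against 800 to 1733 CPM) were within the range of the other lungs but near its lower end. The sum of 3 club cell genes was 5579 CPM against 4266 to 12242 CPM (median 6235), nearer the middle. Of the 19 type 2, type 1 and endothelial genes, 4 were lowest in room air male 1 (Sftpa1, Slc34a2, Car4 and Gpihbp1, named after their values were seen) and 15 were second lowest, and the list medians of the log2 ratio to the median of the other lungs were -0.46, -0.53 and -0.52. For all of these genes but Car4, the lowest of the other 11 lungs was hyperoxia-exposed male 2. That lung had 6.64 CPM of Acta1 and 22.9 CPM of Myh1, beside 729 and 553 CPM in room air male 1. The part of the low lung cell genes of room air male 1 in its muscle result was not tested. Among 45828 genes, 110 were more than 2-fold above the highest of the other 11 lungs in room air male 1 (0.24%), against at most 37 genes in any other lung, room air female 6, judged in the same way.

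The 10 genes together took 0.239% of all counts in room air male 1 (95% Wilson interval 0.236% to 0.242%) and 0.0148% to 0.027% in the other 11 lungs. The interval covers counting error only. In room air male 1, 9 of the 10 genes were above each of the other 11 lungs, and 8 were more than 2-fold above the highest of them. Over all genes, 12.1% were highest in this lung, and their median log2 ratio to the median of the other lungs was 0.048 against 2.93 for the 10 genes. Since whole lungs were sequenced, more muscle cells and more RNA per cell cannot be told apart.

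**Figure D1:**
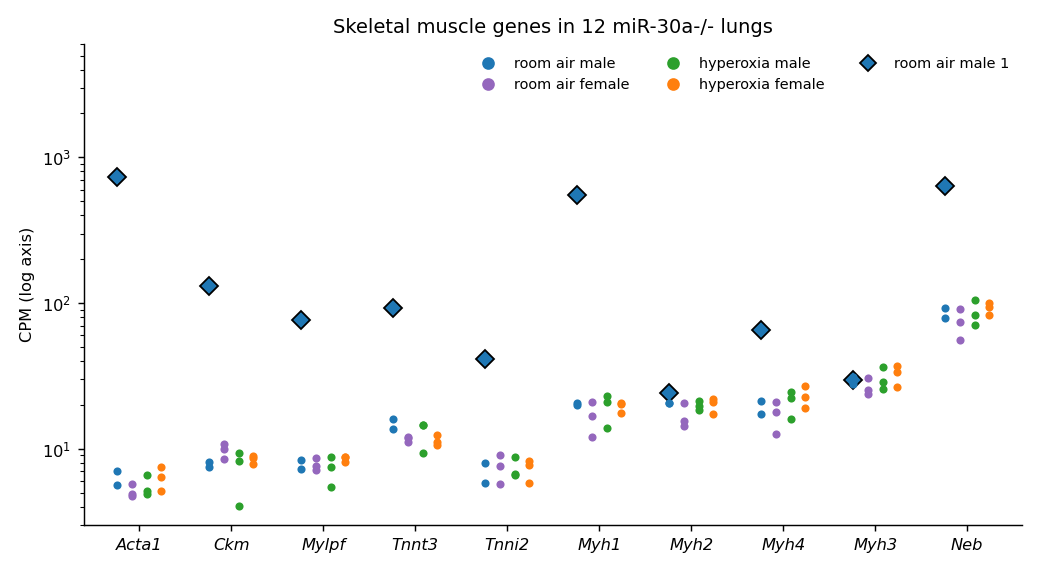
CPM (log axis) of each of the 10 genes in each of the 12 lungs, 1 point a lung, coloured by group, with room air male 1 as an outlined diamond. The diamond is far above the other lungs for Acta1 (729 CPM) and Myh1 (553 CPM), just above them for Myh2 and among them for Myh3.

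The thin filament genes were led by Acta1, which among the 24772 genes with at least 50 counts in room air male 1 had the largest ratio to the highest other lung. Acta1 had 729 CPM (8783 counts) in room air male 1, 5.65 and 7.07 in room air males 4 and 5, 4.88, 4.77 and 5.69 in room air females 2, 5 and 6, 5.10, 6.64 and 4.87 in hyperoxia-exposed males 1, 2 and 3, and 5.16, 6.41 and 7.48 in hyperoxia-exposed females 2, 4 and 5. Thus 1 lung was 97.5-fold above the highest of the rest, and the other 11 lay within a narrow band with 59 to 88 counts each. Neb stood at 632 CPM in room air male 1 and at 55.7 to 104 CPM (median 82.9) in the others, a ratio of 6.05 to the highest. Tnnt3, which ties troponin to tropomyosin, stood at 91.8 CPM against 9.38 to 15.98 CPM (median 12.1), 5.75-fold above the highest. Tnni2, the inhibitory subunit, stood at 41.0 CPM against 5.76 to 9.09 CPM (median 7.57), 4.51-fold above the highest. For these 4 genes room air male 1 did not overlap the other lungs.

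Of the genes that work with the thick filament, Mylpf stood at 76.1 CPM in room air male 1 against 5.46 to 8.78 CPM (median 8.13), a ratio of 8.67 to the highest other lung. Ckm stood at 132 CPM against 4.06 to 10.8 CPM (median 8.46), a ratio of 12.2. Ckm was also the most variable of the 10 genes among the other 11 lungs, with an SD of 0.37 on the log2 scale where the other 9 had 0.20 to 0.31. Its lowest value was in hyperoxia-exposed male 1 and its highest in room air female 2.

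The myosin heavy chains separated from each other. Myh1 had 553 CPM (6660 counts) in room air male 1, 19.8 and 20.5 in room air males 4 and 5, 16.7, 12.02 and 20.8 in room air females 2, 5 and 6, 13.96, 22.9 and 21.0 in hyperoxia-exposed males 1, 2 and 3, and 20.3, 17.7 and 20.5 in hyperoxia-exposed females 2, 4 and 5. It was 24.2-fold above the highest other lung. Myh4 had 65.0 CPM (783 counts) in room air male 1 and 12.7 to 26.9 CPM (median 21.0) in the others, 2.41-fold above the highest. Myh2 had 24.2 CPM (292 counts) in room air male 1 and 14.4 to 21.9 CPM (median 20.5) in the others, 1.11-fold above the highest. Myh3 had 29.6 CPM (356 counts) against 23.8 to 36.9 CPM (median 28.8), and 5 of the other lungs were above room air male 1. So the type IIx gene was far above the rest, the type IIb gene moderately, and the type IIa and embryonic genes were at or near the range of the other lungs. Of the genes outside the 10, Myh8 was high as well, with 402 CPM (4840 counts) against 19.4 to 36.6 CPM, 10.98-fold above the highest. The slow gene Myh7 (40.3 against 38.9 to 50.7 CPM) and the extraocular gene Myh13 (29.1 against 21.1 to 31.2 CPM) were within the range of the others.

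**Figure D2:**
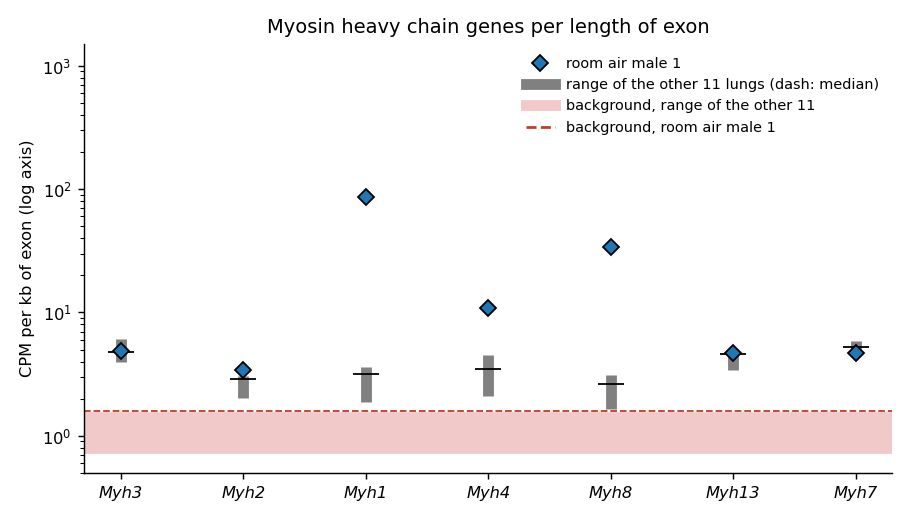
CPM per kb of exon (log axis) of 7 myosin heavy chain genes, the first 6 in their order on chromosome 11: diamonds are room air male 1, grey bars the range of the other 11 lungs with their median, and the shaded band and dashed line the background on receptor genes. Room air male 1 is above the grey bar for Myh1, Myh4 and Myh8, slightly above it for Myh2, and inside it for Myh3, Myh13 and Myh7.

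As shares of the counts per kb of exon on Myh1, Myh2, Myh3, Myh4, Myh7 and Myh8 in room air male 1, Myh1 took 60.1%, Myh8 23.6%, Myh4 7.46%, Myh3 3.37%, Myh7 3.23% and Myh2 2.34%. In the other 11 lungs the order was different, with medians of 23.8% for Myh7, 22.3% for Myh3, 15.5% for Myh4, 13.95% for Myh1, 12.4% for Myh2 and 11.6% for Myh8, and their ranges for Myh1 (11.1% to 15.7%) and Myh2 (11.4% to 13.7%) overlapped. The share of Myh8 depends on the length used, because its exons add up to 11772 bases over all its transcripts while its longest coding transcript has 6149 bases. This holds for its last place in the other 11 lungs too, where shares by transcript length were not computed. By the length of the longest coding transcript, a choice made after seeing the data, Myh1 took 49.8%, Myh8 35.8% and Myh4 5.92% in room air male 1. Counted only as CPM above the median of the other 11 lungs, also chosen after seeing the data, Myh1 took 56.0%, Myh8 39.0%, Myh4 4.62%, Myh2 0.391% and Myh3 0.0795%, and Myh7 0.0%. Without any length, Myh1 had 49.6% of the 6 genes' counts in room air male 1 (95% Wilson interval 48.8% to 50.5%). Myh1 was first and Myh8 second under each of these.

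Reads of these genes can be hard to place. Of all 50-base stretches of the longest coding transcript, 26.7% of those of Myh1, 26.9% of Myh2, 18.9% of Myh4, 21.4% of Myh8 and 4.81% of Myh3 also occur in transcripts of another gene, 19.7% of those of Myh1 in Myh2. How the authors' counting treated reads with several matches is not given in the sources used here, so a part of the Myh2 and Myh4 counts in room air male 1 may belong to Myh1 or the reverse. In Acta1 2.22% of the stretches were shared, and 0.0% in Ckm, Mylpf, Tnnt3, Tnni2 and Neb. Antisense genes overlap 15.5% of the exon length of Ckm (A930016O22Rik), 8.11% of Myh1 (Myhas), 3.32% of Myh2 (9430073C21Rik) and 0.169% of Neb (Gm13522), and the strand setting of the counting is not given either. Myhas itself stood at 7.06 CPM in room air male 1 and 1.53 to 4.99 CPM in the others.

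Levels of different genes were compared per kb of exon. In room air male 1 the order was Acta1 (475 CPM per kb), Myh1 (87.0), Mylpf (71.7), Tnnt3 (58.0), Ckm (45.2), Tnni2 (27.4), Neb (23.8), Myh4 (10.8), Myh3 (4.88) and Myh2 (3.40). Exon length here is summed over all transcripts. The longest coding transcript is shorter, with 766 against 1062 bases for Mylpf and 768 against 1497 for Tnni2. By that length Mylpf would stand above Myh1 and Tnni2 above Ckm. In the other 11 lungs the medians ran only from 2.88 CPM per kb for Myh2 to 7.66 for Mylpf. Tnnt3 (7.64), Tnni2 (5.06), Myh3 (4.75), Acta1 (3.68), Myh4 (3.49), Myh1 (3.19), Neb (3.12) and Ckm (2.90) lay between, and each gene's range over the 11 lungs overlapped that of its neighbour in this order. With a background of 1.58 CPM per kb, background amounted to 0.333% of the counts of Acta1, 1.82% of Myh1, 14.6% of Myh4 and 46.5% of Myh2 in room air male 1. In the other 11 lungs the median background share ran from 14.1% for Tnnt3 to 44.4% for Ckm. With background subtracted, the log2 ratio of room air male 1 to the median of the other lungs went from 4.77 to 5.44 for Myh1 and from 3.96 to 4.74 for Ckm, a move of over 1.5-fold, and from 0.037 to -0.093 for Myh3. Room air female 5, the lung with the lowest background, was the lowest of the 11 for 6 of the 10 genes (Acta1, Myh1, Myh2, Myh4, Myh3 and Neb).

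Other genes of muscle were followed in 9 lists, 84 genes without repeats. Of these, 53 were highest in room air male 1 and 22 were more than 2-fold above the highest other lung, beside 12.1% and 0.24% of all genes. Among 6 other fast fibre genes 5 were highest in this lung: the essential light chain Myl1 at 89.4 CPM against 4.58 to 7.98 CPM, the fast alpha-actinin Actn3 at 57.5 against 16.03 to 22.5 CPM, Myoz1 at 21.6 against 4.26 to 8.27 CPM, and Mybpc2 and Mylk2 under 2-fold above. Of the 50-base stretches of Myl1, 23.4% are also in its pseudogene Mylf-ps, which led the genes outside all lists at 16.4 against 0.406 to 1.19 CPM. Fast troponin C, Tnnc2, was the exception at 1.83 CPM (22 counts) against 0.960 to 2.07 CPM, and 74.0% of its exon length overlaps Ube2c on the other strand.

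The slow fibre list was divided, and its median log2 ratio was -0.13. Its members are all given, those outside the naming rule after their values were seen. Besides Myh7, the slow troponins Tnnt1 (12.9 against 13.7 to 18.4 CPM), Tnni1 (16.8 against 11.9 to 21.9 CPM) and Tnnc1 (6.81 against 6.70 to 9.72 CPM), Myh7b and Myl2 (7.06 against 7.79 to 11.97 CPM) were not above the other lungs. However, the slow light chain Myl3 stood at 64.3 CPM against 8.08 to 15.2 CPM, Mybpc1, the slow form of myosin-binding protein C, at 94.9 against 9.22 to 19.8 CPM, and Myoz2 at 14.2 against 4.14 to 9.24 CPM. Of 5 developmental genes, Myh8 and the cardiac alpha-actin Actc1 (115 against 15.3 to 55.6 CPM) were more than 2-fold above the highest, whereas Myl4, Chrng (0.972-fold of the highest) and Myog (0.995-fold) were not highest.

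In the list of shared sarcomere structure 18 of 20 genes were highest in room air male 1 and 9 more than 2-fold above the next lung. Titin, Ttn, stood at 3950 CPM against 233 to 462 CPM, Myot at 40.3 against 4.45 to 8.42 CPM, and Xirp2 at 132 against 19.1 to 35.4 CPM. Of 15 genes that couple excitation to contraction 10 were highest, led by the fast calcium pump Atp2a1 (212 against 18.9 to 23.3 CPM), Casq1 (45.2 against 8.78 to 13.3 CPM) and Trdn (42.8 against 7.70 to 16.3 CPM). Of 12 energy genes 10 were highest, with Eno3 (67.2 against 14.4 to 21.9 CPM), Mb, myoglobin (35.0 against 4.96 to 11.8 CPM), and Pygm (125 against 30.6 to 53.5 CPM) more than 2-fold above. Of 8 myogenic transcription factors 3 were highest in this lung, and of 7 genes of the neuromuscular junction 2, with 0 of either list more than 2-fold above the highest other lung. The 3 factors were Myf5 (4.57 against 1.84 to 3.93 CPM), Myf6 (4.98 against 1.78 to 4.42 CPM) and Mef2c (99.5 against 61.4 to 92.0 CPM), while Myod1, which commits cells to muscle, stood at 5.56 CPM against 4.73 to 7.51 CPM. In room air male 1 background amounted to 72.1% of the counts of Myf5, 40.1% of Myf6, 24.9% of Mef2c and 52.9% of Myod1. The part of background in these ranks was not tested. Musk, the receptor kinase of the junction, stood at 24.7 against 9.30 to 16.2 CPM.

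**Figure D3:**
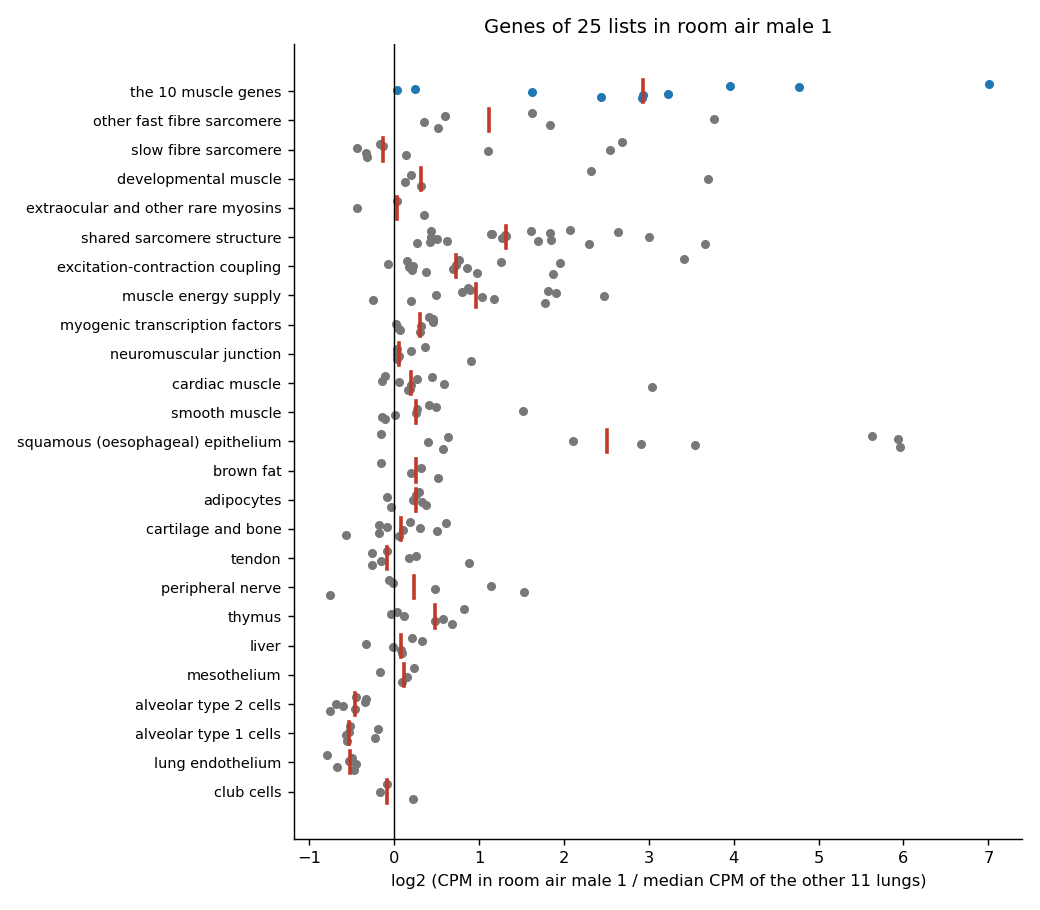
The log2 ratio of the CPM in room air male 1 to the median CPM of the other 11 lungs, 1 point a gene, for the 10 genes and 24 further lists; red bars are list medians and the line at 0 is no difference. The 10 genes (median 2.93) and the squamous epithelium list (median 2.51) reach farthest to the right, and the type 2, type 1 and endothelial lists lie to the left of 0.

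Genes of other tissues were read in the same lung. The squamous epithelium list, of cells such as those that line the oesophagus, moved with the muscle genes: 9 of 10 were highest in room air male 1, 6 more than 2-fold above the next, and the list summed to 1329 CPM against 62.5 to 89.0 CPM. Its keratins Krt4 (544 against 6.79 to 11.5 CPM) and Krt13 (451 against 6.23 to 11.5 CPM) and Sprr3 (167 against 1.55 to 3.25 CPM) were 47.1-fold, 39.1-fold and 51.2-fold above the highest other lung, while Krt6a (6.14 against 3.93 to 6.02 CPM) was barely above it and Crnn (4.4 against 3.44 to 5.67 CPM) was below. The part of this tissue in the muscle result was not tested. Of 10 cardiac genes 1, sarcolipin (Sln, 23.7 against 1.48 to 5.82 CPM), was highest in room air male 1; the atrial markers Myh6 (63.8 against 34.5 to 104 CPM) and Myl7 (7.47 against 3.06 to 17.4 CPM) were highest in room air female 2. Of 8 smooth muscle genes only Des, desmin, which skeletal muscle also uses, was more than 2-fold above the others (117 against 29.3 to 49.9 CPM). In the lists for brown fat, adipocytes, cartilage and bone, tendon, peripheral nerve, thymus, liver, mesothelium and rare myosins 0 genes were. Outside all lists, the 20 genes with the largest ratios (3.55 to 13.9) were mostly genes of cornified or other squamous epithelium. These were Rptn (106 against 6.21 to 8.93 CPM), Asprv1 (89.6 against 4.19 to 7.95 CPM), Tgm3 (98.5 against 10.9 to 16.04 CPM), Lor, Lce3a, Lce3b, Lce3c, Lce3e, Lce3f, Cnfn, Crct1, Kprp, Serpinb3a, Dsc2 and Klk14. The rest were Mylf-ps, Defb4, the muscle genes Tpm2 (119 against 20.8 to 27.3 CPM) and Klhl31 (51.3 against 9.35 to 13.7 CPM) and the imprinted RNA H19 (143 against 7.90 to 14.4 CPM).

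Whether neonatal hyperoxia left the muscle genes changed on PND 21 was tested in the 11 lungs without room air male 1, with edgeR's quasi-likelihood test across 46682 genes. A gene was called where the fold change was over 1.5 and the Benjamini-Hochberg adjusted p was below 0.05. All 10 genes passed the filter on low counts. In females 0 of the 10 were called, beside 8 of all genes (0.0171%). In males 0 of the 10 were called, beside 0 of all genes (0.0%), of which 866 had an unadjusted p under 0.05 (DESeq2 called 0 as well). Between females and males after hyperoxia 0 of the 10 were called, beside 347 of all genes (0.743%). The groups overlapped for each of the 10 genes in all 3 comparisons. Of all genes, 17.1%, 12.9% and 8.95% had groups that did not overlap. At shares this small, 10 genes are too few to show a difference from all genes.

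In females the log2 fold changes of the 10 genes ran from -0.20 for Ckm to 0.41 for Myh4, with a median of 0.25 beside 0.11 over all genes, and 7 of 10 were positive. Myh4 was at 19.1, 26.9 and 22.5 CPM in hyperoxia-exposed females 2, 4 and 5 and at 17.9, 12.7 and 21.0 CPM in room air females 2, 5 and 6. These groups overlap, and room air female 5 is the lowest. Its log2 fold change of 0.41 (SE 0.18, 95% interval 0.044 to 0.78) had the smallest p of the 10 genes, 0.0294 unadjusted, but did not pass (adjusted p = 0.386, edgeR). Of all genes, 5717 had an unadjusted p under 0.05. The receptor background moved with this comparison: with the log2 receptor share of each lung as a covariate Myh4 had 0.040, and the 10 genes ran from -0.51 to 0.077 with 4 positive. With each lung of the comparison left out in turn, Myh4 ran from 0.23 (without room air female 5) to 0.58 (without room air female 6, adjusted p = 0.083), with 0.28 without hyperoxia-exposed female 4 and 0.53 without hyperoxia-exposed female 2. With the replicate block, where the comparison rests on the lungs numbered 2 and 5, Myh4 had 0.46. For Acta1 the exposed females had a mean of 6.35 ± 1.16 CPM (SD, n = 3) beside 5.11 ± 0.502 CPM (SD, n = 3) in the females kept in room air. For Myh1 these means were 19.5 ± 1.60 CPM (SD, n = 3) and 16.5 ± 4.38 CPM (SD, n = 3). The intervals of 9 of the 10 genes held 0, and those of 6 reached beyond a 1.5-fold change, so a change of that size lay within the error of these genes.

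In males, with 3 hyperoxia-exposed and 2 room air lungs, the log2 fold changes ran from -0.21 for Tnnt3 to 0.11 for Myh4, with a median of -0.066 beside 0.0043 over all genes. All 10 intervals held 0, and those of 4 reached beyond 1.5-fold. Tnnt3, with the smallest p, was at 9.38, 14.5 and 14.5 CPM in hyperoxia-exposed males 1, 2 and 3 and at 13.6 and 15.98 CPM in room air males 4 and 5 (log2 fold change -0.21, SE 0.19, unadjusted p = 0.261, adjusted p = 1.00, edgeR). Its value was -0.030 without hyperoxia-exposed male 1 and -0.33 without hyperoxia-exposed male 3. It was -0.098 without room air male 5, where the room air arm is 1 lung that is assumed to vary like the other groups. Acta1 averaged 5.54 ± 0.962 CPM (SD, n = 3) in the exposed males, beside 5.65 and 7.07 CPM in those kept in room air. Between hyperoxia-exposed females and males the values ran from -0.15 for Tnnt3 to 0.26 for Mylpf, whose p was the smallest (0.197 unadjusted, 1.00 adjusted, edgeR). Mylpf was at 8.13, 8.78 and 8.77 CPM in the females and 5.46, 8.71 and 7.46 CPM in the males. The value of Mylpf was 0.093 without hyperoxia-exposed male 1, the lowest lung, and 0.40 without hyperoxia-exposed male 2. No test compared the response of females with that of males.

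Once room air male 1 was put back, the male comparison took on the values of this lung. The log2 fold change of Acta1 became -5.49, of Myh1 -3.36, of Ckm -2.79, of Mylpf -2.10, of Tnnt3 -1.67, of Neb -1.64, of Tnni2 -1.32 and of Myh4 -0.73, while Myh2 (-0.15) and Myh3 (0.039) stayed near 0. Without it Neb had 0.0036 and Tnni2 0.089. These values carry no test, because the 10 genes were chosen on this lung. The mean of Acta1 in room air males was 247 ± 417 CPM (SD, n = 3) with the lung, an SD larger than the mean. The spread that the lung adds is shared by the other comparisons: in females, of which it is no member, the SE of Acta1 was 1.74 with all 12 lungs and 0.22 with 11, and that of Myh1 1.18 and 0.18.

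**Figure D4:**
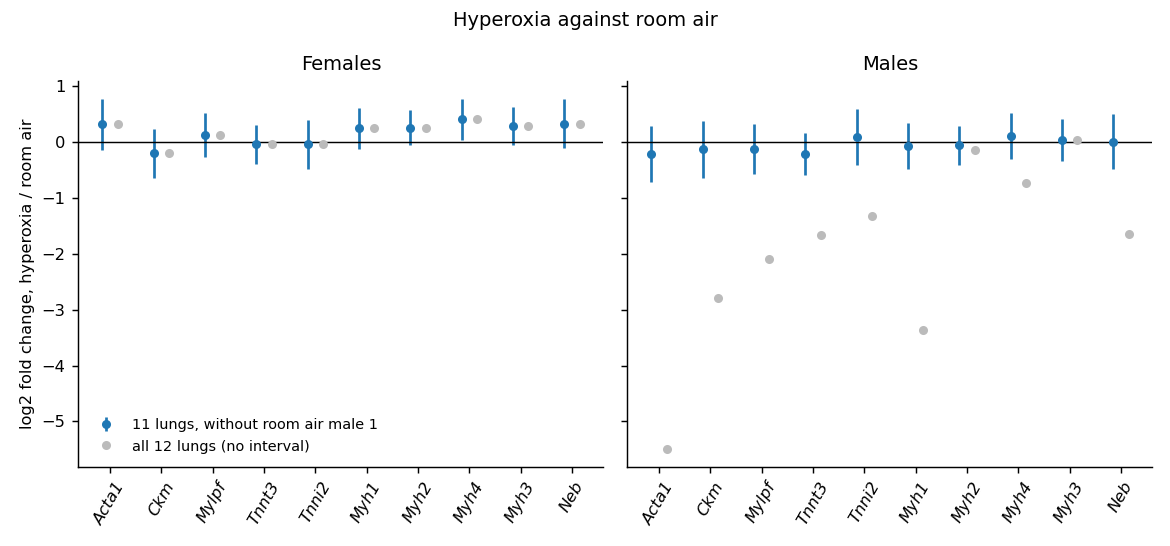
Log2 fold change, hyperoxia against room air, of the 10 genes in females (left) and males (right) from the 11 lungs without room air male 1 (blue, bars are 95% intervals) and from all 12 lungs (grey, values with no interval). Blue points lie between -0.21 and 0.41, and in males the grey points reach down to -5.49 for Acta1.

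Of the 84 genes of the wider muscle lists, all tested in the same 11 lungs, 1 was called in females beside 0.0171% of all genes. This was the cardiac alpha-actin Actc1, named after its value was seen. Its log2 fold change was -1.26 (SE 0.17, adjusted p = 0.0011, edgeR), and the call was kept in 10 of 12 alternatives, lost with all 12 lungs (log2 fold change -1.26, adjusted p = 0.405) and without hyperoxia-exposed female 5 (-1.16, adjusted p = 0.0623), with an adjusted p between 6.3e-08 and 0.405 over the alternatives. In the separate cardiac list 7 of 10 genes had a negative log2 fold change in females (median of the list -0.27, of all genes 0.11), 5 had an unadjusted p under 0.05 and 1 was called, Myh6 (log2 fold change -1.11, SE 0.21, adjusted p = 0.0485), a call kept in 6 of 12 alternatives with an adjusted p between 0.00011 and 0.652. It was lost with all 12 lungs (log2 fold change -1.11, adjusted p = 0.0881), with the replicate block (-0.98, adjusted p = 0.214), with the receptor share as a term of the model (-1.07, adjusted p = 0.562), and without room air female 2 (-1.06, adjusted p = 0.333), hyperoxia-exposed female 4 (-0.95, adjusted p = 0.652) or hyperoxia-exposed female 5 (-1.06, adjusted p = 0.471). In males 0 of these genes were called, beside 0.0% of all genes. Between the sexes after hyperoxia 1 of the 84 genes was called, beside 0.743% of all genes. This was Smpx, an X-linked muscle protein gene, higher in females by 1.47 on the log2 scale (SE 0.31, adjusted p = 0.0129, edgeR). The call was kept in 6 of 10 alternatives (adjusted p 0.0042 to 0.618). Smpx had only 17 to 69 counts in these 11 lungs, and background amounted to 51.6% to 189% of them (median 79.7%), so its level was about that of the background. Its call was lost with all 12 lungs (log2 fold change 1.47, adjusted p = 0.618), and without hyperoxia-exposed male 1 (1.35, adjusted p = 0.0655), hyperoxia-exposed male 3 (1.49, adjusted p = 0.0837) or hyperoxia-exposed female 5 (1.18, adjusted p = 0.231).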

How the data were processed

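RNA-Seq of 12 whole lungs of miR-30a-/- mice on PND 21, 3 per sex and exposure, was analysed. Per the labels and the paper's methods, the authors used Trim Galore for trimming and STAR for mapping to mm10 (GRCm38), and deposited raw counts per gene from featureCounts. For the libraries the labels give a NEBNext Ultra II Directional kit after rRNA depletion, but the methods a QIAseq Stranded Total RNA kit.

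Groups and numbers came from the sample titles. Lungs came from separate animals, whose litters are not given. The 10 genes, the 24 further lists and the tests were chosen with earlier results of these data known. Because room air male 1 chose the genes, the model leaves it out: edgeR 4.0.16 (R 4.3.3, limma 3.58.1), robust quasi-likelihood, upper-quartile normalization, filterByExpr, 4 groups, 46682 genes, Benjamini-Hochberg adjustment. Its biological coefficient of variation was 0.176. In simulated counts for the female comparison (46682 genes, 100 changed per fold size) it recovered 82 of 100 genes at 2-fold and 100 of 100 at 4-fold, with 9 false calls. The changed genes were drawn only from genes above a minimum mean CPM. Each gene was simulated independently, with no shift shared by the genes of a library. The recovery therefore does not cover low genes or such shifts. Exon lengths came from GENCODE M21 (55227 of 55487 genes matched). Comparisons of room air male 1 with the other 11 lungs have no test. Named genes were the 10, the first gene and the 3 highest ratios (at least 50 counts) of each list, shown where a result turned on them, the 20 highest outside all lists, and in each test the smallest p and the calls; other list genes were named after their values were seen. Tables and figures used Python 3.11.15, pandas 2.3.3, numpy 2.4.6, scipy 1.17.1 and matplotlib 3.10.9. Alternatives were all 12 lungs, TMM, DESeq2 1.42.0, no filter, the receptor share as covariate, a replicate block and each lung left out. No molecular identifiers are described.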

Additional observations from a re-analysis of the deposited data

How the results depend on the processing

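Of the 10 genes, 0 were called in any of the 3 comparisons under the alternatives run, leaving aside males with all 12 lungs, where the lung that chose the genes takes part and no test is given. Without room air male 4 or 5 that arm is 1 lung, assumed to vary like the other groups. With all 12 lungs the male log2 fold change reversed for Tnni2 (-1.32), Myh4 (-0.73) and Neb (-1.64). In females the number of called genes was 8 and became 1 with all 12 lungs, 13 with TMM normalization, 13 without a filter, 95 with DESeq2 and 45 when the model also held the receptor share. With each lung left out it ranged from 0 (without hyperoxia female 5) to 422 (without room air female 6). Numbers 2 and 5 are shared by the female groups, and the labels do not say that they pair animals. With the replicate block 3 genes were called. In that block hyperoxia female 4 and room air female 6 are each fitted alone, so the comparison rests on the lungs numbered 2 and 5. In males 12 genes were called with the covariate and 0 under every other alternative run. Between the sexes the 347 calls were 319 with all 12 lungs, 378 with TMM, 422 without a filter and 364 with DESeq2. With each lung left out they ranged from 129 (without hyperoxia female 5) to 354, and were 148 without hyperoxia male 3 and 162 without hyperoxia female 4. The cause of these changes was not tested.

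In room air male 1, 9 genes were highest of 12 lungs with upper-quartile, plain and TMM scaling and with background subtracted. The Myh1 share of 60.1% became 49.6% by counts, 63.1% with background subtracted and 46.5% with 5 more myosins in the sum. The alternatives chosen after seeing the data gave 56.0% (CPM above the median of the other lungs) and 49.8% (transcript length). With background subtracted, the log2 ratio of room air male 1 to the median of the other lungs moved by more than their SD for 6 of the 10 genes and by less for 4. The background share of the counts in the other 11 lungs limits those ratios.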
